A study of Homo sapiens with 4 samples.

Results

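Chromosome 19 carries the largest gathering of C2H2 zinc finger genes in the human genome, and the m6A sites listed in these genes are described here. The members are the protein-coding genes of chromosome 19 whose GENCODE symbol is ZNF followed by digits alone, which gave 240 of 19702 protein-coding genes. A site belongs to a member when it lies in an exon of any of its transcripts on the same strand. Of the 18789 sites of the whole list, 143 did, and they fell in 19 members. The other 221 members had none. A gene or motif is called listed here when it carries at least 1 site of the list.

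The list comes from C643, an established cell line derived from an anaplastic thyroid carcinoma, labelled wild type and left untreated. N6-methyladenosine (m6A) was mapped in its polyadenylated RNA by miCLIP2: fragments are bound by an antibody against m6A, fixed to it with ultraviolet light, and the cDNA made from them ends where the antibody was attached. There were 3 biological replicates in 4 libraries, because replicate 1 had 2 technical libraries, and they were pooled into 1 list. The m6Aboost classifier gave each site a prediction score between 0 and 1. The list holds no reads, no replicate values and no rejected peaks, so neither the depth of a site nor the spread between replicates can be given, and no sample without methyltransferase was analysed here. Gene expression was not analysed here either, so a gene without m6A cannot be told apart from a gene with too little RNA to give a peak. Percentages carry 95% Wilson intervals, which cover the counting of genes, motifs or sites only and treat neighbouring sites of a gene as independent. No test was possible on a single pooled list, and all comparisons are descriptions.

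A C2H2 zinc finger is a short protein module in which a pair of cysteines and a pair of histidines hold a zinc ion, and arrays of such fingers read DNA base by base. In most genes of this family on chromosome 19 the array is encoded by a single long last exon, and an upstream KRAB domain recruits TRIM28 (KAP1) and, through it, the machinery of heterochromatin, often at retrotransposons. The genes arose by tandem duplication, so that their finger sequences resemble each other. m6A is written during transcription by the complex of METTL3 and METTL14 at DRACH (D is A, G or T, R is A or G, H is A, C or T), and is known to be dense in long last exons and around the stop codon.

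The sequences that recurred in the finger arrays are shown first, because much of what follows turns on them. Each window has 21 nt of GRCh38 in transcript direction, 5′ to 3′, with the listed adenosine in the middle of the pentamer in capitals. In the first 8, the adenosine is the middle base of the codon before the second cysteine of a finger, and the pentamer runs over an aspartate codon into the cysteine codon. They are 8 of 12 sites at this place in regularly spaced fingers. Those left out include the lowest scores, 0.546 in ZNF71 finger 5 and 0.562 in ZNF574 finger 10. The place was picked for its count in these same genes.
ZNF526 finger 12, chr19:42225988-42226008, plus strand, score 0.912: caatgcctGGACTgtggcaag
ZNF574 finger 11, chr19:42080260-42080280, plus strand, score 0.903: cggtgtggGGACTgtggcaag
ZNF574 finger 16, chr19:42080905-42080925, plus strand, score 0.813: ccatgtccAGACTgtggcaaa
ZNF865 finger 10, chr19:55615626-55615646, plus strand, score 0.857: gcctgctcGGACTgcggcgag
ZNF628 finger 5, chr19:55481638-55481658, plus strand, score 0.828: ccgtgcccGGACTgccccaag
ZNF446 finger 3, chr19:58480643-58480663, plus strand, score 0.828: ttctgcagTGACTgtggccgc
ZNF576 finger 3, chr19:43599082-43599102, plus strand, score 0.710: ccttgtccTGACTgtggcaag
ZNF71 finger 3, chr19:56621846-56621866, plus strand, score 0.649: gcctgcggGGACTgcggcaag
The 3 sites with the highest scores lay outside the fingers, in the 3′ UTRs of ZNF576 and ZNF446 and upstream of the finger array in ZNF71.
ZNF576, chr19:43599324-43599344, plus strand, score 0.966: gggtgcagGAACTctgggggc
ZNF71, chr19:56621508-56621528, plus strand, score 0.963: catgtcatGAACTgaaggcat
ZNF446, chr19:58481073-58481093, plus strand, score 0.949: gtgttcaaAAACTgtgccttc
The last window is a form of the linker between fingers in the members without a site. Among finger units with a DRACH motif at this place and 28 residues to the next finger, it was the most frequent form. Even so, only 151 of 1576 such units had it. It is shown because it holds the most common DRACH motif of their finger arrays, and it is placed here at one of its copies.
ZNF491 finger 5, chr19:11806834-11806854, plus strand, no site: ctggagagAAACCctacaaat

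The 19 members with a site made up 7.92% of the 240 (5.13 to 12.03). Over all protein-coding genes 3858 of 19702 had a site, which is 19.6%. Among ZNF genes of other chromosomes, chosen by the same form of symbol, 48 of 236 had one (20.3%, 15.7 to 25.9), and among the other protein-coding genes of chromosome 19 it was 441 of 1192 (37.0%, 34.3 to 39.8). The share of chromosome 19 ZNF genes thus lay below all of these comparison groups, and its interval overlapped none of theirs. Where a member did have sites, it had several, with a median of 7 and a maximum of 15, against a median of 4 in the listed ZNF genes of other chromosomes and 3 over all listed genes. Of the 19 listed members, 16 had at least 3 sites and 3 had a single one.

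The members with a site were the GC-rich ones. The canonical spliced transcript had a median GC content of 63.5% in the 19 listed members (44.4 to 70.9 from lowest to highest) and of 41.9% in the 221 unlisted ones (quartiles 39.2 and 44.2). None of the 112 members below 42% GC was listed (0%, 0 to 3.32), and 1 of 78 between 42 and 46%, the gene being ZNF749. From 55 to 60% GC 4 of 6 members were listed, and from 60% upwards 13 of 20 (65.0%, 43.3 to 81.9). The same order held over all protein-coding genes, where 1.56% were listed below 42% GC and 40.4% from 60% upwards. The bins were chosen after the values had been seen.

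**Figure D1:**
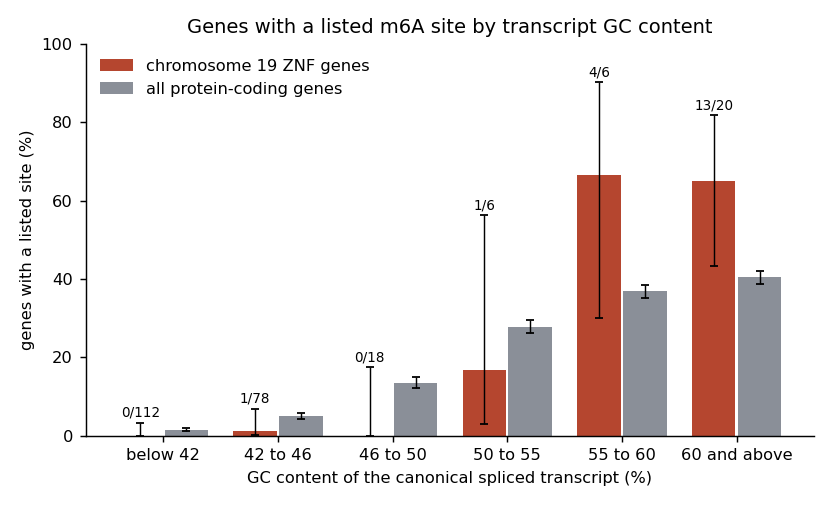
Genes with at least 1 listed site (%, y axis) by GC content of the canonical spliced transcript (%, x axis), for chromosome 19 ZNF genes (red, with listed and total genes printed above) and all protein-coding genes (grey). Bars start at 0 and error bars are 95% Wilson intervals; the members have 1 listed gene of 208 below 50% GC and 17 of 26 from 55% upwards.

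GC content was set beside the share of listed genes by giving each member the share listed among non-ZNF genes of its own GC bin. At those shares 20.2 of the 240 members would have been listed, where 19 were. Below 50% GC the shares give 8.30 listed genes and 1 of 208 was listed, while from 50% upwards they give 11.8 and 18 of 32 were listed. ZNF genes of other chromosomes ran the same way, with 1 of 155 listed below 50% GC where the shares give 7.37, and 47 of 81 listed from 50% upwards where they give 28.5. A pattern of few listed genes at low GC and many at high GC was therefore common to ZNF genes on and off chromosome 19.

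Length and motif number ran opposite to this. The unlisted members had the longer transcripts (median 4066 nt against 2308), the longer 3′ UTRs (1782 against 543 nt) and more DRACH motifs per transcript (82 against 33). Listed and unlisted members also differed in the KRAB domain, here read as a short KRAB-box-like pattern in the protein before the first finger. It was found in 202 members, of which 5 had a site (2.48%, 1.06 to 5.66), and the 38 members without the pattern had 14 listed genes (36.8%, 23.4 to 52.7). The median GC content was 41.98% in the first class and 59.01% in the second, so the classes differed in base composition as well. From 55% GC upwards all 4 members with the pattern were listed (51.0 to 100%) and 13 of 22 without it (59.1%, 38.7 to 76.7), between 50 and 55% it was 0 of 5 and 1 of 1, and below 50% GC it was 1 of 193 and 0 of 15. KRAB class and GC content can hardly be told apart in these genes, as 193 of the 202 members with the pattern lay below 50% GC. This split was made after the values had been seen.

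The 5 listed members with a KRAB-like pattern were ZNF71, ZNF324, ZNF446, ZNF749 and ZNF584. ZNF446 also belongs to the small class with a SCAN domain, which serves for pairing with other SCAN proteins. Of the KRAB zinc finger genes best known as repressors of retrotransposons, ZNF91 (SVA elements) and ZNF93 (LINE-1 elements) had no site, although their transcripts held 131 and 73 DRACH motifs at 36.6% and 41.1% GC. ZNF274, which binds the 3′ ends of other zinc finger genes, had none at 52.3% GC. The imprinted gene ZNF331 and the gene ZNF146, which encodes almost nothing but fingers, had none at 43.9% and 38.9% GC.

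From 50% GC upwards 14 members had no site, among them ZNF837 with 70.8% GC and 28 DRACH motifs, ZNF296 with 67.4% and 27, and ZNF497 with 62.6% and 42. Others of these have a known restriction to a tissue. ZNF541 acts in male meiosis and ZNF536 in neurons, and they had no site at 60.99% and 56.3% GC. They are named after their values were seen, and whether any of these genes was expressed in C643 was not tested.

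Along the chromosome, with genes joined where the gap was at most 1 Mb, the members formed 16 clusters. The cluster at the end of the long arm (chr19:55476617-58481230) held 57 members, 14 of the 19 listed ones and 110 of the 143 sites. A pair of neighbours, ZNF574 and ZNF526 (chr19:42068477-42228201), held another 26 sites. The cluster of 37 members (chr19:19668796-24129968) next to the centromere, to which ZNF91 and ZNF93 belong, and the cluster of 39 members at chr19:51571283-53580269 held none. Their median GC contents were 36.8% and 40.9%, against 46.05% in the cluster at the end of the arm.

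ZNF526 and ZNF865 had 15 sites each, ZNF71 had 14, ZNF628 had 13, and ZNF581 and ZNF574 had 11 each. The 5 genes with the most held 68 of the 143 sites, so that no single gene carried the counts. ZNF324 and ZNF579 followed with 9 sites, ZNF446 and ZNF784 with 7, ZNF524 and ZNF787 with 6, ZNF576 and ZNF444 with 5, ZNF580 with 4 and ZNF749 with 3. ZNF584, ZNF358 and ZNF428 had 1 each. None of the sites was shared by a pair of members, but 3 sites also lay in an exon of an unnamed gene on the same strand, of which ZNF358 had 1 and ZNF749 had 2.

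Sites were then placed in the longest well-supported coding transcript of each listed gene. The coding part of the last coding exon, where the fingers lie, held 80 of the 143 sites (55.9%, 47.8 to 63.8), and the 3′ UTR held 57 (39.9%, 32.2 to 48.0). In all other protein-coding genes the order was turned, with 19.9% (19.3 to 20.5) in the last coding exon and 53.1% (52.4 to 53.8) in the 3′ UTR, and ZNF genes of other chromosomes had 43.8% (37.9 to 49.8) and 31.7% (26.4 to 37.5). At a score of at least 0.7 the members' own order turned, with 37 of 82 sites in the last coding exon (45.1%, 34.8 to 55.9) and 44 in the 3′ UTR (53.7%, 42.9 to 64.04), against 18.2% and 61.96% in other genes. The remaining member sites were 2 in the 5′ UTR, 2 in other coding exons and 2 in an exon of another transcript. The last exon as a whole held 137 of the 143. The layout of the genes bears on this: all fingers lay in the last coding exon in 235 of the 240 members, that exon was also the last exon in 239, and its coding part had a median length of 1070 nt in the listed members against 156 nt over all listed genes. The classifier itself used the transcript region and the sequence of a site, so that no comparison of regions or motifs is independent of it.

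Because regions differ in length, sites were set against the DRACH motifs present. Of the motifs in the last coding exon of listed members, 66 of 275 carried a site (24.0%, 19.3 to 29.4), and of those in the 3′ UTR 52 of 380 (13.7%, 10.6 to 17.5). The background over all regions of other genes with a site was 6.94%. Other genes had 16.8% (16.3 to 17.4) in the last coding exon and 8.52% (8.35 to 8.70) in the 3′ UTR, and the intervals of members and other genes did not overlap in either region. ZNF genes of other chromosomes had 109 of 607 (18.0%, 15.1 to 21.2) and 70 of 1115 (6.28%, 5.00 to 7.86). Their interval overlapped that of the members in the last coding exon and lay below it in the 3′ UTR. The order of the regions in the members depended on low scores. At a score of at least 0.7 it was 32 of 275 (11.6%, 8.36 to 15.97) in the last coding exon and 44 of 380 (11.6%, 8.74 to 15.2) in the 3′ UTR. Other genes then had 10.2% (9.79 to 10.6) and 6.76% (6.603 to 6.914), so that the intervals of members and other genes overlapped in the last coding exon and stayed apart in the 3′ UTR. Other coding exons of the members had 2 of 45 motifs listed (4.44%, 1.23 to 14.8). These rates hold within genes that were chosen for having a site, and a gene with several sites weighs more in them than a gene with 1.

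**Figure D2:**
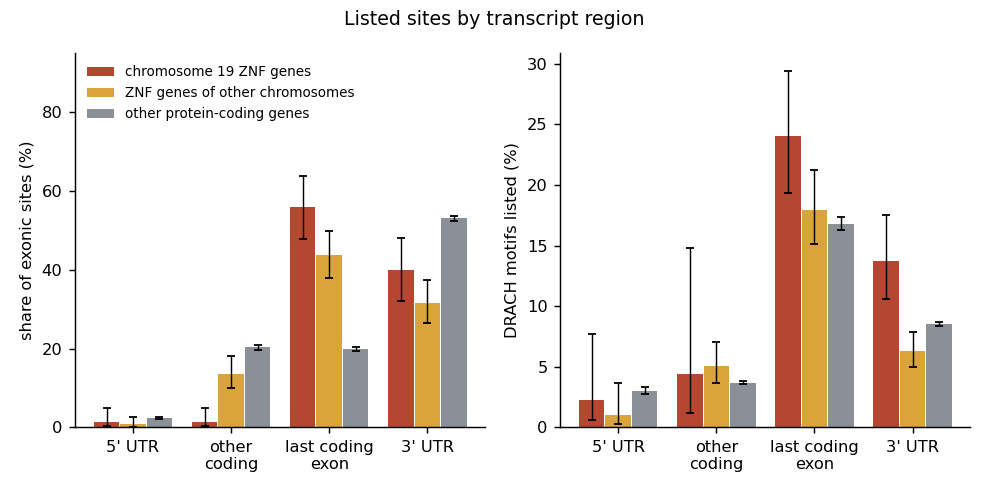
Share of exonic sites (%, left) and share of DRACH motifs with a site (%, right) by transcript region, for chromosome 19 ZNF genes with a site (red), ZNF genes of other chromosomes with a site (yellow) and all other protein-coding genes with a site (grey). Error bars are 95% Wilson intervals. The last coding exon holds 55.9% of the member sites against 19.9% in all other genes. Of its motifs 24.0% are listed against 16.8% in all other genes and 18.0% in ZNF genes of other chromosomes.

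The genes differed widely in this division. ZNF574, with 18 fingers, had all 11 of its sites in the coding part of the last exon, and ZNF628, with 16 fingers, had 12 of 13 there. Their 3′ UTRs measured 252 and 114 nt. ZNF526 and ZNF865, with 13 and 20 fingers, had 10 coding and 5 3′ UTR sites each, and ZNF71, with 13 fingers, had 10 and 4. ZNF324 lay at the other end with 1 coding and 8 3′ UTR sites, in a 3′ UTR of 3282 nt. ZNF787 had 1 and 5, ZNF446 had 2 and 5, and ZNF579 and ZNF784 were nearly even with 5 against 4 and 3 against 4. Sites in both parts were found in 14 of the 19 genes, more coding than 3′ UTR sites in 10 and the reverse in 7.

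**Figure D3:**
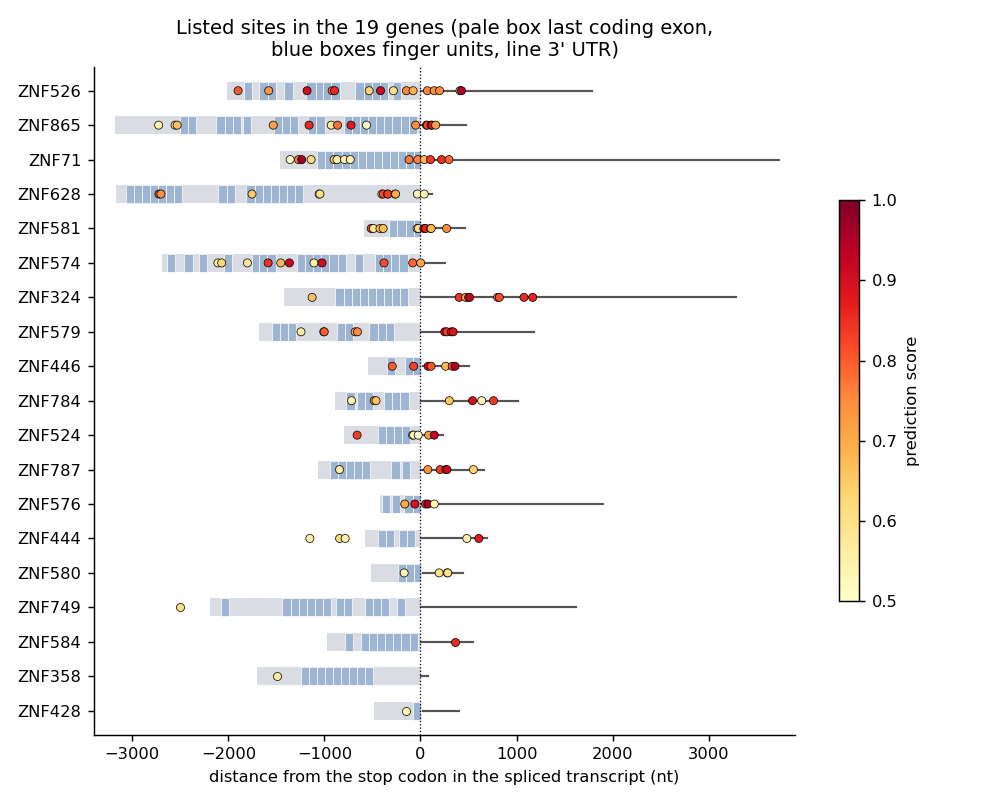
The 19 listed genes, 1 to a line, with every site on the chosen transcript as a point coloured by prediction score (0.5 to 1) at its distance from the stop codon (nt, x axis). Pale boxes are the coding part of the last coding exon, blue boxes the finger units and lines the 3′ UTR; ZNF574 has 11 of 11 sites in the last coding exon and ZNF324 has 8 of 9 in the 3′ UTR.

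Around the stop codon the share of listed motifs was at its highest. It was 16 of 45 in the last 200 nt before the stop codon (35.6%, 23.2 to 50.2) and 24 of 64 in the 200 nt from it onwards (37.5%, 26.7 to 49.7). From 800 nt after the stop codon it was 4 of 189 (2.12%, 0.826 to 5.31), and all 4 of these were in ZNF324. More than 800 nt before the stop codon, 5′ UTRs included, it was still 30 of 240 (12.5%, 8.90 to 17.3), where other genes had 4.16% (4.02 to 4.31). The bins before the stop codon mix last and other coding exons, and the mix is unlike. In listed members 275 motifs lay in the last coding exon and 45 in other coding exons, against 19120 and 90201 in other genes. The bins were not split by exon, so these contrasts do not compare like regions. The intervals of members and other genes did not overlap in any bin that ended less than 200 nt after the stop codon, and overlapped in all bins beyond it. Of the 141 sites on chosen transcripts, 42 lay within 200 nt of the stop codon (29.8%, 22.9 to 37.8).

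**Figure D4:**
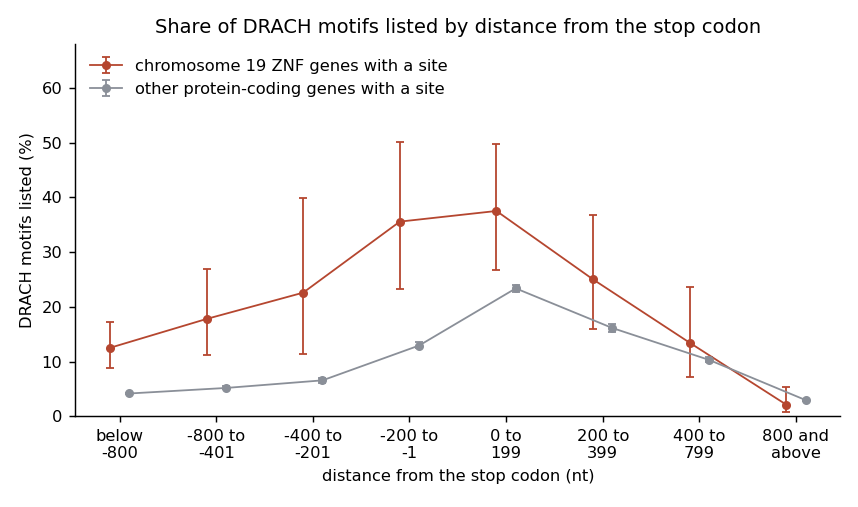
DRACH motifs with a listed site (%, y axis) by distance from the stop codon (nt, x axis, unequal bins, negative values upstream), for chromosome 19 ZNF genes with a site (red) and other protein-coding genes with a site (grey). Error bars are 95% Wilson intervals. The members reach 37.5% in the 200 nt from the stop codon onwards and stand at 12.5% more than 800 nt upstream, against 23.4% and 4.16% in other genes. Upstream bins mix last and other coding exons, in unlike proportions between the sets.

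Coding sites of the members were far from splice junctions. The median distance to the nearest junction was 757 nt over the 77 coding sites of transcripts with a junction (98 to 3154), against 197 nt over 6983 coding sites of other genes. Only 2 of the 77 lay within 100 nt of a junction (2.60%, 0.715 to 8.98), against 30.6% (29.5 to 31.7) elsewhere. The long last exons bear on both contrasts, with a median coding length of 1070 nt in listed members against 156 nt over all listed genes. The distances were not set against those of the motifs present, so they describe the layout of the genes as much as the sites. The longest supported transcripts of ZNF524 and ZNF580 have a single exon, and their sites have no such distance. Neighbouring sites of a gene were a median of 88.5 nt apart, and 8 of 122 gaps were at most 10 nt, as between the pair of ZNF628 sites at -343 and -339 nt from the stop codon.

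Within the last coding exon the fingers were found by their spacing C-X2-4-C-X12-H-X3-5-H in the translated sequence, and a unit was counted from the first cysteine codon to the next finger or to the end of the linker. The members held 3004 such fingers, of which 163 were in listed genes. Of the 80 sites in the last coding exon, 33 lay in finger units and 47 outside. All 33 were at DRACH, and they made up 33 of the 110 motifs in the units (30%, 22.2 to 39.1), against 33 of 165 motifs outside the units in the same exons (20%, 14.6 to 26.8). In other genes with at least 3 fingers and a site it was 65 of 331 (19.6%, 15.7 to 24.3) inside and 73 of 419 (17.4%, 14.1 to 21.3) outside. The intervals for inside and outside overlapped in both sets. Over all 240 members, most of which have no site, the direction was the other one, with 33 of 4598 motifs listed inside (0.718%, 0.512 to 1.01) and 33 of 2648 outside (1.25%, 0.889 to 1.74). These counts over all members used the longest supported transcript. It lacks fingers of the canonical one in 22 members, so some finger motifs are left out. The data thus do not separate finger units from the rest of the exon.

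Finger sites were most numerous in ZNF526, with 7, and ZNF71, with 6. ZNF865 and ZNF574 had 4 each and ZNF628 had 3. ZNF324 and ZNF579, with 9 and 8 fingers, had none. The same held for ZNF749 with 13 fingers, ZNF358 with 9, ZNF584 with 8, ZNF524 and ZNF444 with 4 each, and ZNF428 with 1.

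The finger sites were not spread evenly over the unit. Counted in nt from 0 at the first base of the first cysteine codon, position 7 held 14 of the 33 finger sites (42.4%, 27.2 to 59.2). It is the middle base of the third residue, and the second cysteine follows it. In units with the regular spacing C-X2-C-X12-H-X3-H, of which the listed members had 151, position 7 held 12 of 29 sites in 7 genes, and no other position held more than 2. ZNF574 had it in fingers 7, 10, 11 and 16 of its 18, ZNF526 in fingers 8 and 12 of 13, ZNF71 in fingers 3 and 5 of 13, and ZNF865, ZNF628, ZNF576 and ZNF446 in a single finger each. Such sites of a gene share the sequence of the repeated unit and are not independent of each other. A further 2 sites at position 7 lay in irregularly spaced fingers 3 and 5 of ZNF526.

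The motif itself was often present there. Of the 151 regular units 18 had a DRACH motif at position 7 (11.9%), and 12 of the 18 were listed (66.7%, 43.7 to 83.7). GGACT was the motif in 7 of them with 6 listed, TGACT in 6 with 3 listed and AGACT in 5 with 3 listed. At all other positions of these units it was 17 of 84 (20.2%, 13.04 to 30.04). The position was picked for its count, so the difference is a description only. The same position can be read in finger genes that took no part in that choice, the other genes with at least 3 fingers and a site. There 12 of 25 motifs at position 7 were listed (48%, 30.03 to 66.5) against 49 of 355 at all other positions (13.8%, 10.6 to 17.8). Most motifs at other positions were of forms that were listed less often, so the motif ending in GACT was also compared alone. At other positions of the unit GGACT, together with its forms starting with A or T, was listed in 12 of 46 motifs of those genes (26.1%, 15.6 to 40.3) and in 3 of 7 of the members (42.9%, 15.8 to 74.95). Both intervals overlapped those of position 7, so position and motif cannot be told apart with these numbers. In those genes position 7 was second to position 57, which had 15 sites and 14 of 40 motifs listed (35.0%, 22.1 to 50.5). In the members 2 of 7 motifs at position 57 were listed (28.6%, 8.22 to 64.1).

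The kind of motif goes along with the position. GGACT, the DRACH form with the most member sites, was at position 7 in 9 of all finger units of listed members and listed in 8 of them (88.9%, 56.5 to 98.01). In the same genes it was listed in 2 of 5 elsewhere in finger units (40%, 11.8 to 76.9), in 1 of 3 in the last coding exon outside the units (33.3%, 6.15 to 79.2) and in 9 of 26 in the 3′ UTR (34.6%, 19.4 to 53.8). The interval at position 7 overlapped all of these except that of the 3′ UTR. Position 7 was picked for its count in these same genes, so that gap is a description only. In regular units of the other finger genes with a site, GGACT at position 7 was listed in 6 of 13 (46.2%). For AGACT it was 3 of 5 at position 7, 7 of 13 in the last coding exon outside the units and 9 of 32 in the 3′ UTR. For TGACT it was 3 of 6, 3 of 8 and 5 of 20, and the intervals of these 2 motifs overlapped between all places.

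**Figure D5:**
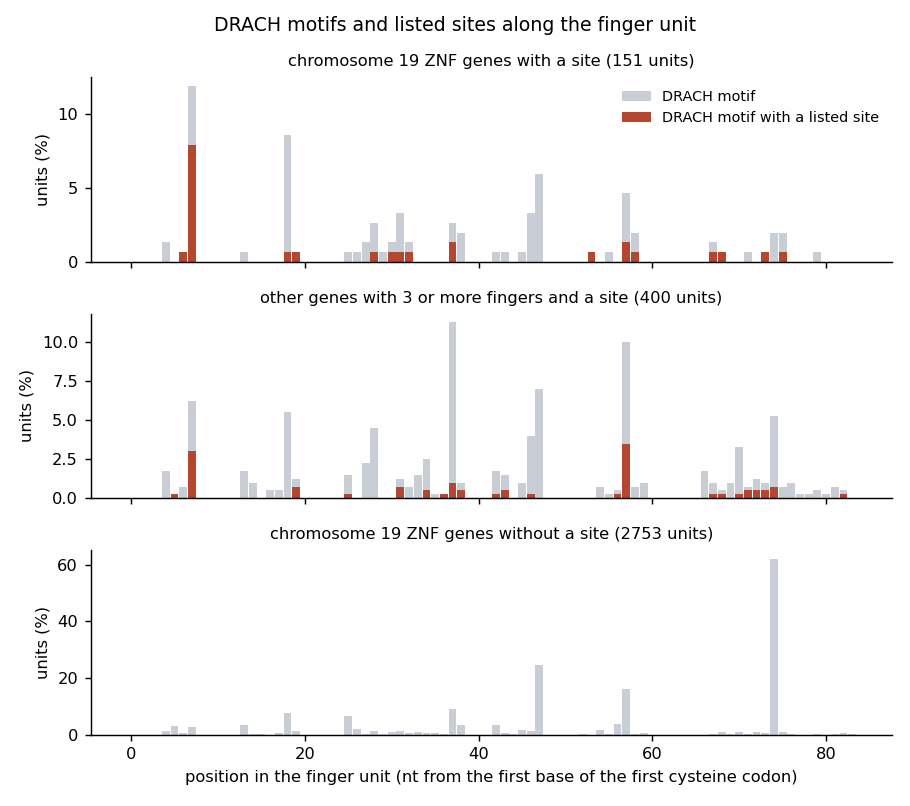
Regularly spaced finger units (%, y axis, scale differs by panel) with a DRACH motif (grey) and with a DRACH motif that carries a listed site (red) at each position of the unit (nt from the first base of the first cysteine codon, x axis). The panels show listed chromosome 19 ZNF genes (151 units), other listed genes with 3 or more fingers (400 units) and chromosome 19 ZNF genes without a site (2753 units); position 7 has the tallest red bar of the first panel and position 74 the tallest grey bar of the third.

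The fingers of unlisted members had another set of motifs. A DRACH motif at position 7 was present in 73 of their 2753 regular units (2.65%), since the residue there was glutamate in 64.4% of units and aspartate in 4.72%, against 27.2% and 15.9% in the listed members. In place of it, 1708 units (62.0%) had a DRACH motif at position 74, in the linker whose sequence threonine-glycine-glutamate-lysine-proline joins the fingers of this family. The motif was AAACC in 1456 of these. The listed members had a motif at position 74 in 3 of 151 units, with no site in any of them. As these members were set apart for having no site, nothing about AAACC follows from their counts. In listed members the finger units held 7 AAACC motifs, none of them listed (0 to 35.4%), and the whole transcripts 36 (0 to 9.64%). In other finger genes with a site 2 of 15 AAACC motifs at position 74 were listed, and 3 of 21 DRACH motifs of any form there (14.3%, 4.98 to 34.6). Over the whole transcripts of other listed genes it was 24 of 10537 AAACC motifs (0.228%, 0.153 to 0.339).

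Repeated sequence bears on the reads behind these counts, as only reads that map to 1 place were kept by the authors. The 36 bases after a motif occurred more than once in the genome for 838 of 4929 motifs in finger units of unlisted members (17.0%, 15.98 to 18.1), for 4 of 110 in listed members (3.64%, 1.42 to 8.98) and for 3.61% of motifs in other listed genes. None of the 141 member sites on chosen transcripts had a repeated sequence after it (0 to 2.65%). In the unlisted members most finger motifs were unique by this measure. The part of repeats in the missing sites was not tested.

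Of the 143 sites, 124 were at DRACH (86.7%, 80.2 to 91.3), against 88.7% (88.2 to 89.2) of the other sites of the list. GGACT was the most frequent pentamer with 23 sites, or 18.5% of the DRACH sites (12.7 to 26.3) against 24.5% (23.8 to 25.1) elsewhere, and both shares differed from the other sites by less than their intervals. AGACT followed with 20 sites, GGACA with 15, TGACT with 11 and GAACT with 10. Set against the motifs in the listed members, GGACT was listed in 23 of 56 (41.1%, 29.2 to 54.1), AGACT in 20 of 61 (32.8%, 22.3 to 45.3) and GAACT in 10 of 30 (33.3%, 19.2 to 51.2). In other listed genes these were 24.8%, 15.1% and 16.1%. AGACC, of which these transcripts held more copies than of any other pentamer with a site, was listed in 5 of 93 (5.38%, 2.32 to 11.97).

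The 19 sites outside DRACH had a single main form. GGACG, which misses DRACH by its last base, made up 9 of them, in ZNF579, ZNF865, ZNF628, ZNF581, ZNF524 and ZNF71. It was listed in 9 of 37 motifs of the listed members (24.3%, 13.4 to 40.1), against 6.62% in other listed genes. The median score was 0.659 outside DRACH and 0.751 at DRACH.

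Prediction scores had a median of 0.730 in the members (quartiles 0.600 and 0.834) and of 0.754 in the other sites (0.640 and 0.847). Within the members the 57 sites of the 3′ UTR stood higher, with a median of 0.818 (0.723 and 0.866), than the 80 sites of the last coding exon, with 0.679 (0.573 and 0.794). Finger units had 0.740 and the rest of the last coding exon 0.672. A score of at least 0.7 was reached by 82 of the 143 sites (57.3%, 49.1 to 65.2). The lowest scores were 0.501 in ZNF71 at a GGAGT pentamer and 0.502 at each of a pair of sites in ZNF524, just above the limit of the list. ZNF358 and ZNF428 rest on a single site each, with scores of 0.551 and 0.535.

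The sequence around the sites was GC-rich, at about the level of the listed members' whole transcripts, whose median was 63.5%. Within 50 nt to each side on the spliced transcript, the median GC content was 63.4% at the member sites (quartiles 59.4 and 67.3) and 60.4% at sites of other genes (54.5 and 64.4). DRACH motifs without a site in the same listed members had a median of 55.4%, and DRACH motifs of unlisted members 40.6%. The motifs without a site were pooled over genes and regions, so genes with many motifs and few sites weigh more in the 55.4%. One such gene is ZNF749, with 1 of 87 motifs listed at 44.4% GC. Sites of the last coding exon had 65.3% and those of the 3′ UTR 60.4%.

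The partners through which KRAB zinc finger proteins act were looked up as a list of 12 genes, of which 3 had sites, near the 19.6% of all protein-coding genes. TRIM28, itself on chromosome 19, had 2 coding sites with a best score of 0.744. The chromatin remodelling genes CHD3 and CHD4 had 2 and 4 sites, all in the 3′ UTR. SETDB1, the methyltransferase recruited by TRIM28, its cofactor ATF7IP, the heterochromatin protein genes CBX1, CBX3 and CBX5, the deacetylase genes HDAC1 and HDAC2, and MORC3 and TASOR had none.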

How the data were processed

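The deposited list is a BED file in which the fifth column is the m6Aboost prediction score, a fraction between 0 and 1 that the authors computed for each site pooled over replicates. Per the submitters' processing notes and the study's methods, reads were aligned to GRCh38.p12 with STAR 2.7.3a, uniquely mapping reads were kept, duplicates were removed with UMI-tools 1.0.0, and peaks from PureCLIP found in at least 2 replicates were classified. Depth per site is unknown.

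Genes came from GENCODE release 44 on GRCh38, a later release than the authors'. Symbols with a letter after the digits (6 genes) and hyphenated readthrough names (2) are not members. Regions used the longest coding transcript with support level at most 3 and annotation level at most 2; properties over all members used the canonical transcript, since the longest one lacks fingers in 22 members. Placement was tested on simulated data only, where 40 of 40 made-up transcripts with planted finger units were recovered. That does not test whether the pattern misses real fingers, or the choice of transcript. Python 3.11.15, numpy 2.4.6, pysam 0.24.0, numba 0.67.0, matplotlib 3.10.9 and samtools 1.23.1 were used.

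The members, gene lists and splits were chosen with earlier results of these data known. The rule for named genes takes the 10 members with the most sites, those of the 3 highest and 3 lowest scores, those with at least 3 finger sites, and ZNF91, ZNF93, ZNF274, ZNF331 and ZNF146. Other genes are named to account for all listed members or after their values were seen. Alternatives changed the score threshold, transcript, motif, finger pattern, overlapping genes and repeats.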

Additional observations from a re-analysis of the deposited data

How the results depend on the processing

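Of the alternatives tried on 11 measures, 30 left the value within the interval or quartiles of the main setting and 10 moved it outside. With sites of a score of at least 0.7 only, the share of sites in the last coding exon fell from 55.9% to 45.1% and that of the 3′ UTR rose from 39.9% to 53.7%, so their order turned. The share of motifs listed went to 11.6% in the last coding exon, level with the 3′ UTR at 11.6%, and to 17.3% in finger units, and the share of sites at DRACH to 93.9%. With RAC, which drops the first and last base of DRACH, in place of DRACH, 16.4% of motifs in the last coding exon were listed. With the motifs of all 240 members in place of those with a site, the shares were 0.911% in the last coding exon and 0.502% in the 3′ UTR, or 0.839% and 0.531% with the canonical transcript, a choice made after seeing the data, as was adding names with a letter after the digits. Position 7 was the most frequent finger position under each alternative tried, at 38.5% to 57.9% of finger sites. Replicates could not be left out, as the list pools them. No paired analysis was possible because the list gives no values per replicate. Depth per site and expression are unknown, so an absent site sets no upper limit on methylation.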
